A study of Mus musculus with 9 samples.

Results

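The 44 genes described here encode the machinery that brings proteins into mitochondria, folds them there and degrades them. The rule that picks them uses gene names and no measured values, but it was set with earlier results of these data known. Every row of the deposited count table that GENCODE M21 maps to a protein-coding symbol made of Timm or Tomm and a number was taken, which gave 25 genes, and 19 chaperone, protease and import genes were added one by one, out of 57180 identifiers in all. Of the 44 genes, 42 passed the filter on low counts and were tested; Timm8a2 and Tomm20l had 0 counts in all 9 libraries and were not detectable at this depth.

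The study sequenced RNA from intestinal stem cells (ISCs) of the mouse small intestine, which sit at the crypt base and renew its lining, sorted as Lgr5-GFP+ cells by flow cytometry. KANSL1 holds together the NSL complex, in which KAT8 acetylates histones, and the comparisons ask how ISCs differ after its loss. The KO day 4 group (3 libraries) came from Lgr5-EGFP-CreERT2; Kansl1 f/f mice given tamoxifen on each of 4 days. The KO day 3 group (3 libraries) came from mice of that genotype given tamoxifen on each of 3 days. The control group (3 libraries), labelled KANSL1-WT, came from mice given corn oil. The labels give no age and do not say whether the controls carried the same Cre and floxed alleles. Cre was driven from the Lgr5 locus, so deletion starts in Lgr5+ cells and passes to their progeny. Loss of Kansl1 and tamoxifen went together in both KO groups and cannot be told apart, and KO day 4 differs from KO day 3 in both time and doses. The labels do not state that the 3 libraries of a group came from separate mice, so the p-values rest on a spread that may be technical.

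Nearly all mitochondrial proteins are made in the cytosol and enter through the TOM complex of the outer membrane. Proteins with a cleavable presequence pass on through the TIM23 channel, are pulled into the matrix by the mtHsp70 motor, lose the presequence to the mitochondrial processing peptidase and fold with help from the HSP60 and HSP10 chaperonin; carrier proteins go through the small TIM chaperones and the TIM22 complex instead. Proteases of the matrix and inner membrane remove what is damaged or not assembled, and in mammals a block in import or folding is known to raise ATF4, ATF5 and CHOP (Ddit3), which form the mitochondrial stress response. Deletion of Hspd1 (HSP60) from the mouse intestinal epithelium is known to trigger that response and to disturb stem cells.

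The groups differed in more than these genes. Counts of mitochondrially encoded genes were 69.4% ± 2.63 of the total at KO day 4, 27.3% ± 7.32 at KO day 3 and 20.03% ± 5.08 in controls (SD, n = 3 each), and totals ran from 8400458 to 21484679 counts a library. Counts left for nuclear genes were 3115374 to 5614186 at KO day 4, 6808115 to 14905644 at KO day 3 and 9996919 to 13980785 in controls. Kansl1 itself was at 2.93, 5.09 and 8.96 CPM at KO day 4, 2.81, 2.99 and 2.55 at KO day 3 and 4.46, 11.4 and 9.83 in controls (CPM, read counts scaled to a common library size with TMM factors). The KO day 3 libraries lay below every control, while the KO day 4 values overlapped the controls, and neither difference passed the test (-0.63 ± 0.46 SE, adjusted p = 0.34 by edgeR, at KO day 4, and -1.62 ± 0.45 SE, adjusted p = 0.12 by edgeR, at KO day 3, both as log2 fold changes). Exons that were not deleted still give reads, so these counts check the labels only in part. The sort markers Lgr5, Olfm4 and Ascl2 were present in all 9 libraries. The summed level of 8 stem cell markers was 2755 to 7599 CPM of the nuclear counts at KO day 4, 12749 to 18350 at KO day 3 and 18905 to 22738 in controls, and 5 of the 8 fell at KO day 4 by edgeR.

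Markers of other cells moved with KO day 4, and those of mast cells with KO day 3 as well. The 8 Paneth cell markers summed to 108122 to 149092 CPM of the nuclear counts at KO day 4, 29881 to 46382 at KO day 3 and 19272 to 47200 in controls, and all 8 rose at KO day 4. The 8 mast cell markers summed to 412 to 1144 at KO day 4, 19.1 to 179 at KO day 3 and 0.10 to 0.376 in controls. Of the 6 mast cell markers that passed the filter on low counts, all 6 rose at KO day 4 and 4 rose at KO day 3 (Fcer1a, Tpsb2, Cma1 and Cpa3), among 19 genes that rose at KO day 3 in all. Fcer1a, Mcpt1, Mcpt2, Tpsab1 and Ms4a2 were at 0 in every control, and Mcpt1 was at 0 in every KO day 4 library. Of the enteroendocrine markers 7 of 8 rose at KO day 4, of the goblet markers 4 of 7 rose and 1 fell, and of the tuft markers 4 of 5 tested rose. Of the 8 other immune markers, which summed to 54.1 to 150.2 at KO day 4, 6.19 to 35.3 at KO day 3 and 1.40 to 4.52 in controls, 4 were tested and all 4 rose; Cd79a, Cd3g and Cd3e were at 0 at KO day 4. Markers of stroma and endothelium summed to 37.6 to 70.3 at KO day 4, 7.05 to 14.9 at KO day 3 and 2.40 to 5.80 in controls; of the 8, 2 were tested and both rose, while Acta2 and Pdgfra were at 0 at KO day 4. Enterocyte markers overlapped between the groups, with sums of 31.1 to 52.3 at KO day 4, 24.6 to 93.6 at KO day 3 and 24.7 to 66.3 in controls, and 1 of 5 tested rose. All 4 red blood cell globins were at 0 at KO day 4, and none was tested. The part of these cells in the results below was not tested, and in bulk samples fewer cells of a type and less RNA per cell cannot be told apart.

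At KO day 4 the import machinery did not move as a block. Of the 42 tested members, 1 rose (Timm17a) and 4 fell (Pmpcb, Tomm7, Trap1 and Timm17b) by edgeR's quasi-likelihood test with an adjusted p under 0.05, which is 11.9% of the members against 22.5% of all 13405 genes tested. The members' log2 fold changes had a median of -0.12, against -0.063 for all genes, and ran from -1.19 (Pmpcb) to 0.84 (Tomm6). The KO day 4 and control libraries did not overlap for 18 members (42.9%, against 47% of all genes), 8 of them higher at KO day 4 (19%, against 20.6%) and 10 lower (23.8%, against 26.4%). Most changes were small: 32 of 42 (76.2%) lay within 0.5 of 0 on the log2 scale, against 43.7% of all genes. Together the 44 genes summed to 4313 ± 445 CPM of the nuclear counts at KO day 4, 6742 ± 522 at KO day 3 and 6273 ± 349 in controls (SD, n = 3 each), not scaled by TMM. With TMM scaling the sums were 2899 ± 213 CPM at KO day 4, 3735 ± 336 at KO day 3 and 2975 ± 51.1 in controls, so that the lower KO day 4 sum was not seen on that scale. The KO day 4 libraries overlapped the controls there, and the KO day 3 libraries lay above both. All fold changes of single members are with TMM scaling. When libraries were scaled by total counts alone, the median of all genes moved to -1.95 at KO day 4 and that of the members to -1.99, all 42 members were called lower, and the 16 members above 0 under TMM were below 0. All 42 were also called lower against KO day 3. This scaling is among the 18 alternatives counted below, so it adds to the count for every lower call at KO day 4, whichever the member.

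At KO day 3 no member passed the test (0 of 42, against 0.44% of all genes), while 16 members had an unadjusted p under 0.05 by edgeR (38.1%, against 15.8% of all genes). DESeq2 called 5 members higher (Hspa9, Tomm22, Tomm40, Tomm6 and Tomm70a) and 1 lower (Pmpcb). It also called more of all genes than edgeR did, 5.88% of 13919, with 355 higher and 463 lower. The median log2 fold change was 0.29 over the members and -0.017 over all genes, and 32 of the 42 lay above 0. The KO day 3 and control libraries did not overlap for 23 members (54.8%, against 30.1% of all genes). Every KO day 3 library lay above every control for 20 of them (47.6% of the members, against 12.1% of all genes), and below for 3 (7.14%, against 18%). The library KO day 3 replicate 1, the smallest at 8400458 counts, correlated less well with its own group (0.895 and 0.899, log2 CPM across genes) than the controls did with each other (0.965 to 0.970). It held the highest level of the 9 libraries for 27 of the 42 members, as for 16.2% of all genes, and without it the members' median was 0.18. The mast cell markers, 4 of which rose at KO day 3, also summed highest in that library among the KO day 3 libraries (179 CPM of the nuclear counts), and their part in the members' values was not tested. Scaling by total counts alone moved the median of all genes to -0.39 and that of the members to -0.075.

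**Figure D1:**
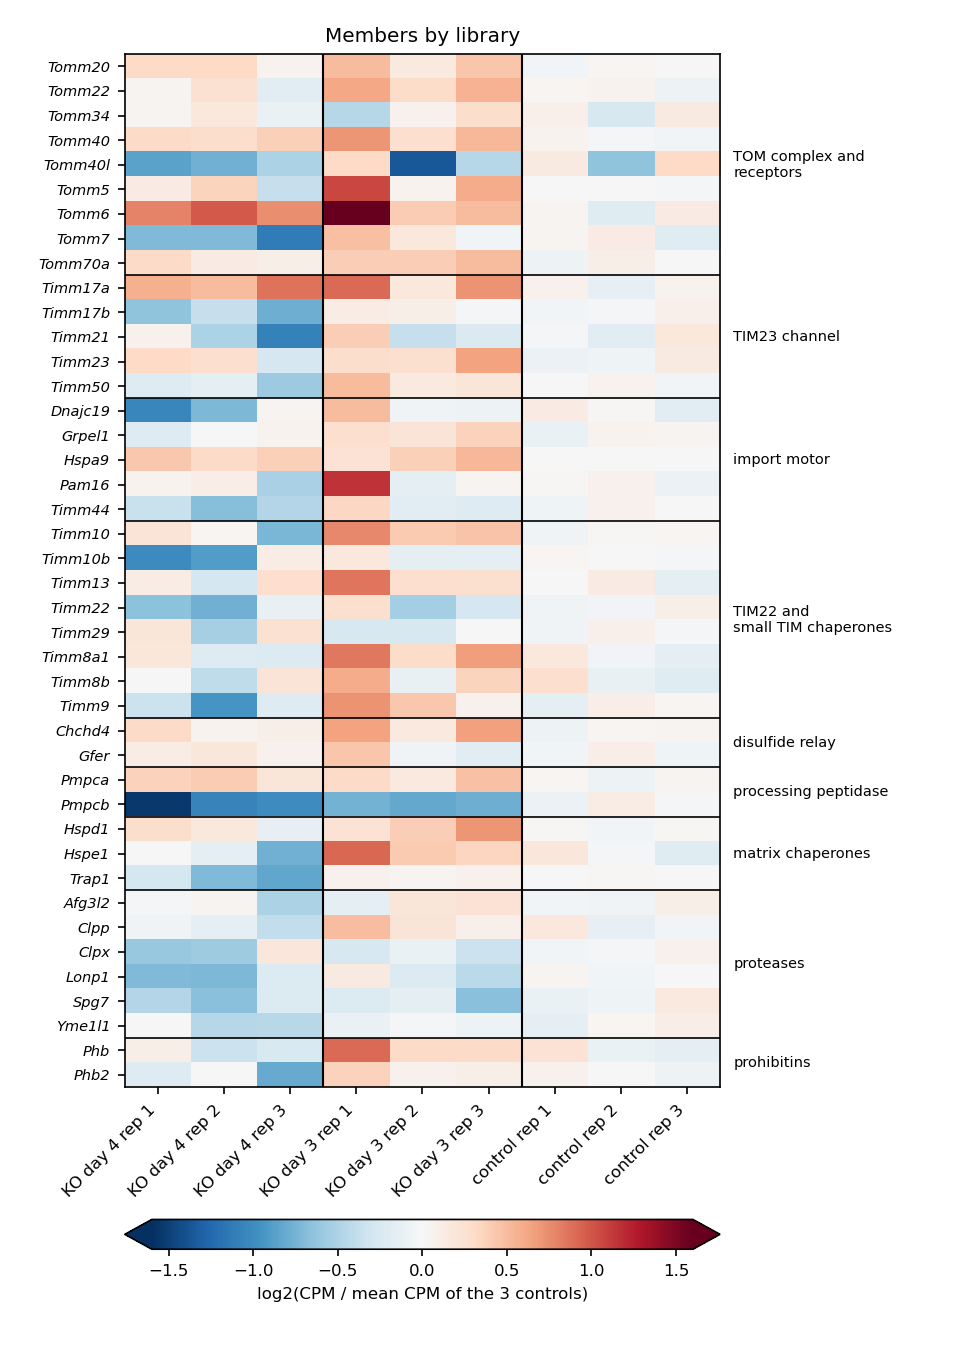
Level of each of the 42 tested members in each library, as log2 of CPM over the mean CPM of the 3 controls (colour, TMM-scaled), with KO day 4 left, KO day 3 in the middle and controls right, ordered by role; values past the ends of the scale share the end colours. KO day 3 replicate 1 is the reddest column for 27 of the members, and Pmpcb is blue in all 6 KO libraries.

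The TOM complex, the entry gate of the outer membrane, had 1 of its 9 tested genes fall at KO day 4 and none rise. Tomm7, a small subunit that modulates TOM assembly and is known in human cells to help hold the kinase PINK1 at the outer membrane (chromosome 5, 23838944 to 23844161, minus strand, GRCm38), was at 28.9, 28.8 and 21.7 CPM at KO day 4, 65.9, 52.9 and 45.8 at KO day 3 and 48.7, 51.5 and 41.3 in controls. All 3 KO day 4 libraries lay below all 6 others, and Tomm7 fell against control (log2 fold change -0.83 ± 0.19 SE, adjusted p = 0.012 by edgeR) and against KO day 3 (-1.04 ± 0.19 SE, adjusted p = 0.0087 by edgeR). Its level without control replicate 2 missed the threshold against control (edgeR adjusted p = 0.054); it passed under the other 17 alternatives.

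The core of the gate behaved differently. Tomm40, the channel, was at 132, 130.2 and 139 CPM at KO day 4, 175, 129 and 155 at KO day 3 and 111, 106 and 104 in controls. Both KO groups lay above every control, without passing the test at KO day 4 (0.32 ± 0.15 SE, adjusted p = 0.14 by edgeR) or KO day 3 (0.52 ± 0.15 SE, adjusted p = 0.12 by edgeR). Tomm22, the central receptor, was at 95.6, 109.5 and 82.2 CPM at KO day 4, 142, 114 and 137 at KO day 3 and 94.8, 96.2 and 87.4 in controls. Only the KO day 3 libraries were clear of the controls there (0.50 ± 0.15 SE, adjusted p = 0.15 by edgeR), and KO day 4 overlapped them. Tomm20, the receptor for presequences, was at 75.2, 74.7 and 62.7 CPM at KO day 4, 85.2, 66.9 and 81.5 at KO day 3 and 58.3, 61.7 and 60.4 in controls. Tomm70a, the receptor for carrier proteins that binds cytosolic chaperones, was at 133, 117 and 114 CPM at KO day 4, 141, 140.5 and 152 at KO day 3 and 101, 114 and 106 in controls. For both receptors each KO library lay above each control, by under 1 CPM at the narrowest for Tomm20 and for Tomm70a alike. Their log2 fold changes were 0.24 and 0.18 at KO day 4 and 0.37 and 0.44 at KO day 3, none past the threshold.

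Among the other TOM genes the small subunit Tomm6 had the highest fold changes of all members, 0.84 ± 0.31 SE, adjusted p = 0.068 by edgeR at KO day 4 and 1.01 ± 0.30 SE, adjusted p = 0.14 by edgeR at KO day 3. Its KO day 3 value rests largely on replicate 1, at 119 CPM against 47.8 and 51.0 CPM in the other two, and its locus is shared with Usp49, Gm21981 and the antisense gene Tomm6os, whose reads cannot be told apart here. Tomm5, another small subunit, had 0.07 at KO day 4 and 0.63 at KO day 3. Tomm40l, a relative of the channel, had -0.71 at KO day 4 and -0.35 at KO day 3, and Tomm34, known as a cytosolic co-chaperone of HSP70 and HSP90 despite its name, had 0.05 at KO day 4 and 0.00 at KO day 3. None of these passed the test.

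The TIM23 channel of the inner membrane showed opposite changes in its alternative subunits. TIMM17A and TIMM17B are paralogs, 1 of which sits in each channel complex, and human TIMM17A is known to be degraded by YME1L1 under stress. Timm17a (chromosome 1, 135295213 to 135313778, minus strand) was at 42.9, 41.02 and 52.6 CPM at KO day 4, 54.4, 32.4 and 47.7 at KO day 3 and 30.3, 26.4 and 30.04 in controls. Both KO groups lay above every control, and Timm17a rose at KO day 4 (log2 fold change 0.65 ± 0.21 SE, adjusted p = 0.043 by edgeR), with 0.63 ± 0.21 SE, adjusted p = 0.17 by edgeR at KO day 3. Timm17b (chromosome X, 7899357 to 7908351, plus strand) was at 22.4, 27.2 and 20.4 CPM at KO day 4, 38.03, 37.4 and 34.4 at KO day 3 and 33.9, 34.2 and 36.9 in controls. Its KO day 4 libraries lay below all others, and it fell against control (-0.58 ± 0.17 SE, adjusted p = 0.031 by edgeR) and against KO day 3 (-0.65 ± 0.17 SE, adjusted p = 0.033 by edgeR). These calls sit near the threshold: at KO day 4 Timm17a was called higher under 8 of 18 alternatives and Timm17b lower under 12 of 18. The 12 include scaling by total counts alone, which called all 42 members lower. Scaled by total counts alone Timm17a was called lower, at -1.25 where the median gene was at -1.95. The Timm17a call was lost without any 1 of the KO day 4 or control libraries or KO day 3 replicate 3. The Timm17b call was lost without any 1 control, KO day 4 replicate 1 or 3, or KO day 3 replicate 2. Timm17b overlaps the gene Gm10491 on the other strand, whose reads cannot be told apart.

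Timm23, the channel itself, was at 25.2, 24.3 and 16.8 CPM at KO day 4, 24.6, 24.2 and 31.6 at KO day 3 and 18.9, 19.3 and 22.4 in controls. Timm50, the receptor that takes preproteins over from TOM, was at 78.1, 80.5 and 60.2 CPM at KO day 4, 128, 100.3 and 103 at KO day 3 and 89.4, 93.6 and 86.99 in controls. Neither passed the test against control at either time, but Timm50 fell at KO day 4 against KO day 3 (-0.59 ± 0.16 SE, adjusted p = 0.037 by edgeR), with its KO day 4 libraries below all 6 others. Timm21, which links the TOM and TIM23 complexes, had -0.41 at KO day 4 and -0.03 at KO day 3, neither past the threshold.

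**Figure D2:**
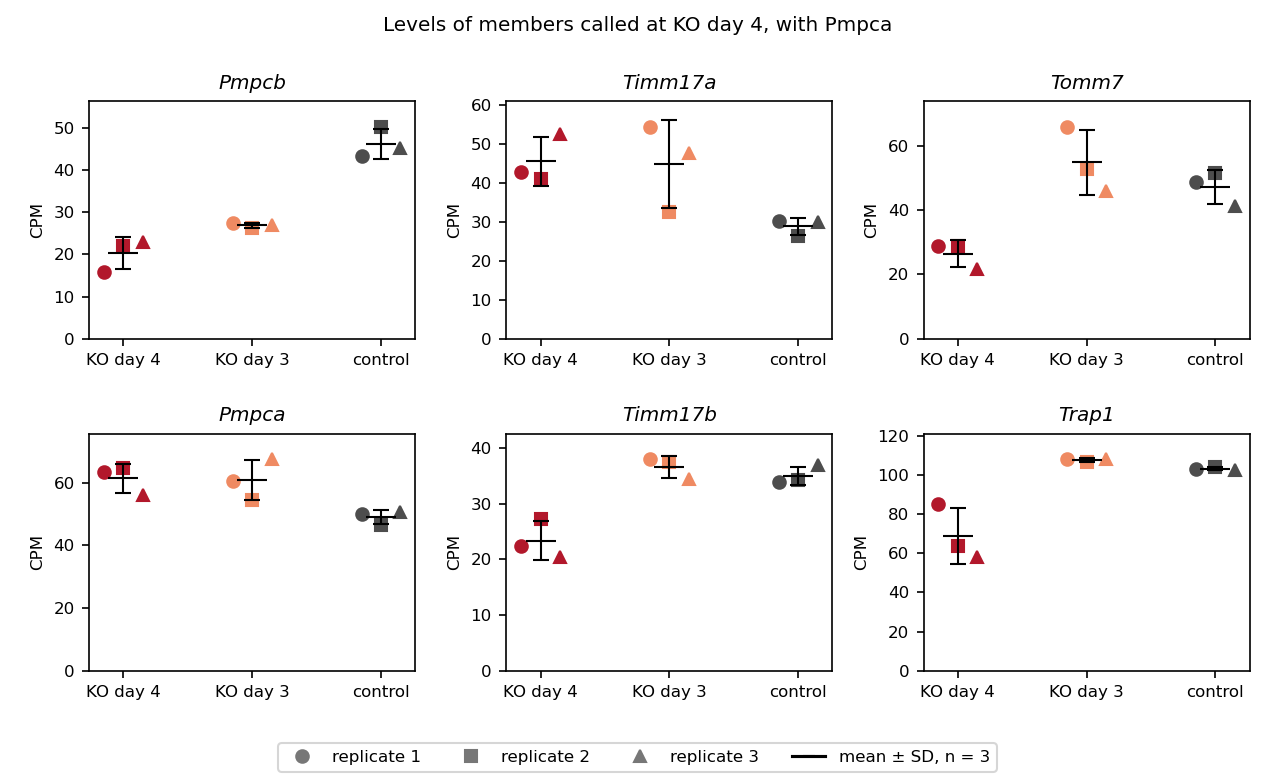
CPM (linear axis from 0, TMM-scaled) of the 5 members that passed the edgeR test at KO day 4 against control, and of Pmpca, the partner of Pmpcb; points are libraries, bars the mean ± SD of 3. Pmpcb lies between 15.9 and 27.5 CPM in the 6 KO libraries, against 43.5 to 50.3 in controls, while Pmpca lies above the controls in every KO library; with libraries scaled by total counts alone Timm17a and Pmpca were lower at KO day 4.

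None of the 5 genes of the import motor passed the test in any comparison, though Hspa9 came near it. Hspa9 (mtHsp70, mortalin), the ATPase that pulls preproteins in, was at 384, 351 and 369.9 CPM at KO day 4, 334, 372 and 411 at KO day 3 and 283, 287 and 285 in controls. All 6 KO libraries lay above the 3 controls, and the log2 fold changes were 0.37 ± 0.14 SE, adjusted p = 0.073 by edgeR at KO day 4 and 0.39 ± 0.14 SE, adjusted p = 0.20 by edgeR at KO day 3. Hspa9 was called higher at KO day 4 under 6 of 18 alternatives (DESeq2, RLE scaling, a mean CPM of at least 5, a fit of the 6 libraries compared, and fits without KO day 3 replicate 1 alone or with KO day 4 replicate 3) and lower under 1, scaling by total counts alone. Timm44, which tethers Hspa9 to the channel, was at 30.00, 24.01 and 27.8 CPM at KO day 4, 48.6, 34.2 and 33.4 at KO day 3 and 36.7, 40.3 and 38.4 in controls. Its KO day 4 libraries lay below all others (-0.50 ± 0.19 SE, adjusted p = 0.084 by edgeR). The remaining motor genes had log2 fold changes at KO day 4 of -0.04 (Grpel1, the nucleotide exchange factor), -0.52 (Dnajc19, a J protein) and -0.08 (Pam16, its partner). The KO day 3 values of Grpel1, Dnajc19 and Pam16 were 0.28, 0.14 and 0.45. Pam16 had the lowest level of the tested members, between 1.34 and 4.26 CPM, and the largest SE (0.53 at KO day 4).

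The mitochondrial processing peptidase, which cuts presequences off imported proteins in the matrix, is a dimer of PMPCA, the subunit that binds the presequence, and PMPCB, which carries the zinc site that cuts. Its subunits differed in these data. Pmpcb (chromosome 5, 21737141 to 21757152, plus strand) was at 15.9, 22.1 and 23.1 CPM at KO day 4, 27.5, 26.4 and 27.04 at KO day 3 and 43.5, 50.3 and 45.2 in controls. All 6 KO libraries lay below all controls, KO day 4 lay below KO day 3, and Pmpcb fell at KO day 4 (log2 fold change -1.19 ± 0.19 SE, adjusted p = 0.0017 by edgeR). This was the largest fall among the members and it passed under all 18 alternatives, at -1.29 to -1.05, and at -3.11 when scaled by total counts alone. At KO day 3 its difference missed the threshold (-0.78 ± 0.18 SE, adjusted p = 0.084 by edgeR), and it passed there by DESeq2, in a fit of only the 6 libraries compared, with scaling by total counts alone, and in fits without KO day 4 replicate 3. Pmpca was at 63.3, 64.9 and 55.98 CPM at KO day 4, 60.5, 54.7 and 67.6 at KO day 3 and 49.9, 46.4 and 50.6 in controls. Every KO library lay above every control (0.33 ± 0.15 SE, adjusted p = 0.14 by edgeR at KO day 4, and 0.32 ± 0.15 SE, adjusted p = 0.32 by edgeR at KO day 3).

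Since both genes are counted in the same library, their ratio does not depend on how libraries are scaled. Counts of Pmpcb over those of Pmpca were 0.252, 0.341 and 0.412 at KO day 4, 0.455, 0.482 and 0.400 at KO day 3, and 0.872, 1.08 and 0.894 in controls. The ratio was thus below that of every control in all 6 KO libraries. The mean log2 ratio was -1.61 ± 0.36 at KO day 4, -1.17 ± 0.14 at KO day 3 and -0.08 ± 0.17 in controls (SD, n = 3 each). The 2-sided exact permutation test gave p = 0.1 for each KO group against control, the smallest p that 3 against 3 can give, and 0.21 after adjustment over 21 tests. Pmpcb overlaps the pseudogene Gm15715 and Pmpca overlaps Inpp5e, both on the other strand. Stretches before the RefSeq start sites of both subunit genes are shown because both hold the motif of ETS family factors, CCGGAAG, in capitals (RefSeq, GRCm38.p6, both plus strand, chr5:21737010-21737159 and chr2:26389284-26389311). By the GENCODE coordinates given above, the Pmpcb gene starts earlier and its motif lies just inside the gene.
Pmpcb: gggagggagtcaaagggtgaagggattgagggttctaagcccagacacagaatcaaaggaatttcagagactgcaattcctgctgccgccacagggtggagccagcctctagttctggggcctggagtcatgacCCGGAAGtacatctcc
Pmpca: ggctcggcgggCCGGAAGccagcgccga

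Of the 3 matrix chaperones, Trap1 fell at KO day 4 and the HSP60 and HSP10 chaperonin genes did not pass the test against control. Trap1, the mitochondrial HSP90 (chromosome 16, 4039971 to 4077827, minus strand), was at 85.1, 63.4 and 58.2 CPM at KO day 4, 108, 106 and 108 at KO day 3 and 103, 104 and 103 in controls. The KO day 4 libraries lay below all others, and Trap1 fell against control (-0.58 ± 0.16 SE, adjusted p = 0.025 by edgeR) and against KO day 3 (-0.64 ± 0.16 SE, adjusted p = 0.027 by edgeR). The call against control passed under 13 of 18 alternatives and was lost without any 1 control or without KO day 4 replicate 2 or 3. Trap1 overlaps Dnase1 on the other strand. Hspd1, which forms the HSP60 folding chamber, was at 476, 438 and 357 CPM at KO day 4, 457, 512 and 635 at KO day 3 and 395, 381 and 397 in controls. KO day 3 lay above the controls (0.45 ± 0.17 SE, adjusted p = 0.22 by edgeR) and KO day 4 overlapped them (0.12 ± 0.17 SE, adjusted p = 0.65 by edgeR). Hspe1, the HSP10 lid of that chamber, was at 184, 166 and 109 CPM at KO day 4, 348, 247 and 235 at KO day 3 and 209.7, 182 and 162 in controls. It had -0.27 ± 0.22 SE, adjusted p = 0.40 by edgeR at KO day 4 and 0.58 ± 0.22 SE, adjusted p = 0.23 by edgeR at KO day 3, and it fell at KO day 4 against KO day 3 (-0.85 ± 0.22 SE, adjusted p = 0.031 by edgeR), a call that held under 11 of 18 alternatives and was lost without KO day 3 replicate 1.

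Hspd1 and Hspe1 lie head to head on chromosome 1 (55077835 to 55088243, minus strand, and 55088132 to 55091307, plus strand, by GENCODE). By these coordinates the starts of the genes overlap. A RefSeq start site of Hspd1 lies further inside that gene, and the sequence between it and the Hspe1 start site is shared. Because of the overlap, and of 5 and 6 named processed pseudogenes for Hspd1 and Hspe1, single values of this pair are uncertain. They were the most abundant members per length in controls, at 148 and 125 CPM per kilobase of exon, followed by Tomm5 at 98.2 and Phb2 at 93.2. The shared stretch is shown beside one from Timm9, since these are the promoters in which the heat shock element, the motif of HSF1, was found on either strand. It was searched as 3 blocks that alternate between GAA and TTC, starting with either, with 2 free bases between them. In Hspe1 its overlapping copies run into the ETS motif, and capitals mark both (RefSeq, GRCm38.p6, chr1:55088054-55088081, plus strand, and chr12:71136858-71136885, minus strand).
Hspe1: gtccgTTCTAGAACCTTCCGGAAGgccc
Timm9: attaggctTTCTAGAAATTTCgacagat

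The TIM22 complex and its chaperones, which insert carrier proteins such as the ATP exchanger, had no call against control at either time. Timm22, the insertion channel, was at 14.1, 13.04 and 20.4 CPM at KO day 4, 26.4, 15.3 and 18.5 at KO day 3 and 21.4, 21.5 and 23.8 in controls. Its KO day 4 libraries lay below the controls by a small gap (-0.50 ± 0.26 SE, adjusted p = 0.18 by edgeR). The small TIM proteins escort carriers across the space between the membranes. Timm9 was at 13.2, 8.74 and 14.6 CPM at KO day 4, 27.6, 22.6 and 17.6 at KO day 3 and 15.1, 18.1 and 17.1 in controls. Timm10, its partner in the chaperone ring, was at 28.9, 25.8 and 15.2 CPM at KO day 4, 42.9, 33.7 and 34.7 at KO day 3 and 24.2, 25.5 and 25.8 in controls. For Timm9 the KO day 4 libraries were the lowest of the 9 and it fell against KO day 3 (-0.89 ± 0.25 SE, adjusted p = 0.042 by edgeR), which held under 7 of 18 alternatives; for Timm10 the KO day 3 libraries lay above all others (0.56 ± 0.23 SE, adjusted p = 0.26 by edgeR). Timm8a1, the mouse counterpart of the human deafness-dystonia gene, was at 29.5, 22.6 and 22.4 CPM at KO day 4, 46.6, 31.7 and 41.1 at KO day 3 and 29.2, 25.2 and 23.5 in controls. The KO day 3 libraries again lay above all others (0.62 ± 0.20 SE, adjusted p = 0.17 by edgeR).

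The other members of this class did not pass the test in any comparison. Their log2 fold changes at KO day 4 were 0.05 for Timm13, -0.05 for Timm8b, -0.52 for Timm10b and 0.01 for Timm29, a subunit of the human TIM22 complex. The KO day 3 values were 0.49 for Timm13, 0.30 for Timm8b, -0.03 for Timm10b and -0.16 for Timm29. Timm10b was at 8.56 and 9.38 CPM in KO day 4 replicates 1 and 2 but at 18.8 CPM in replicate 3, a library that correlated with its group at only 0.836 and 0.843. Without that library and KO day 3 replicate 1, Timm10b was called lower at KO day 4.

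The disulfide relay of the intermembrane space had no call. Chchd4 (MIA40), which traps cysteine-rich proteins by oxidising them, was at 39.97, 33.7 and 34.7 CPM at KO day 4, 50.6, 36.1 and 51.3 at KO day 3 and 30.7, 33.1 and 33.5 in controls. Gfer (ALR), which reoxidises it, was at 34.1, 35.6 and 32.7 CPM at KO day 4, 42.7, 29.99 and 27.7 at KO day 3 and 30.3, 33.7 and 29.8 in controls. Chchd4 lay above the controls in all 6 KO libraries (0.16 ± 0.18 SE, adjusted p = 0.56 by edgeR at KO day 4, and 0.50 ± 0.18 SE, adjusted p = 0.20 by edgeR at KO day 3), and Gfer overlapped between all groups (0.13 at KO day 4 and 0.09 at KO day 3).

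All 6 protease genes had log2 fold changes below 0 at KO day 4, from -0.53 to -0.14, and none passed the test. Lonp1, the main protease of the matrix, was at 48.1, 47.7 and 67.6 CPM at KO day 4, 86.97, 67.8 and 58.4 at KO day 3 and 81.3, 76.1 and 78.5 in controls. Clpp, the proteolytic core of the ClpXP protease, was at 48.2, 45.2 and 38.1 CPM at KO day 4, 70.2, 57.8 and 52.99 at KO day 3 and 56.1, 45.4 and 48.3 in controls. Clpx, its unfoldase, was at 13.9, 14.3 and 23.96 CPM at KO day 4, 17.7, 19.6 and 16.7 at KO day 3 and 20.6, 20.8 and 22.1 in controls. The 3 KO day 4 libraries lay below the controls for Lonp1 (-0.53 ± 0.19 SE, adjusted p = 0.068 by edgeR) and overlapped them for Clpp and Clpx (-0.19 and -0.29). In the inner membrane, Yme1l1, the protease that faces the space between the membranes, was at 45.6, 33.1 and 33.4 CPM at KO day 4, 41.9, 44.8 and 42.6 at KO day 3 and 40.8, 46.4 and 48.5 in controls. Afg3l2, of the protease that faces the matrix, was at 53.8, 56.6 and 38.7 CPM at KO day 4, 49.4, 62.9 and 64.3 at KO day 3 and 53.3, 52.9 and 58.8 in controls. Both overlapped between KO day 4 and controls (-0.27 and -0.14). Spg7, the partner of Afg3l2, lay below the controls in both KO groups (-0.45 at KO day 4 and -0.33 at KO day 3, neither past the threshold). Without KO day 3 replicate 1 and KO day 4 replicate 3, Lonp1 and Clpx were called lower at KO day 4.

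Prohibitins form a ring scaffold in the inner membrane that binds the matrix-facing proteases. Phb was at 54.03, 39.9 and 42.99 CPM at KO day 4, 95.3, 62.8 and 62.9 at KO day 3 and 59.6, 47.2 and 45.7 in controls. Phb2 was at 299.8, 347 and 199 CPM at KO day 4, 448, 363 and 369 at KO day 3 and 365, 348 and 328 in controls. Neither differed from control beyond the threshold at KO day 4 (-0.15 and -0.30) or KO day 3 (0.53 and 0.18), and both lay lower in every KO day 4 library than in every KO day 3 library, with adjusted p of 0.055 and 0.13 by edgeR.

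**Figure D3:**
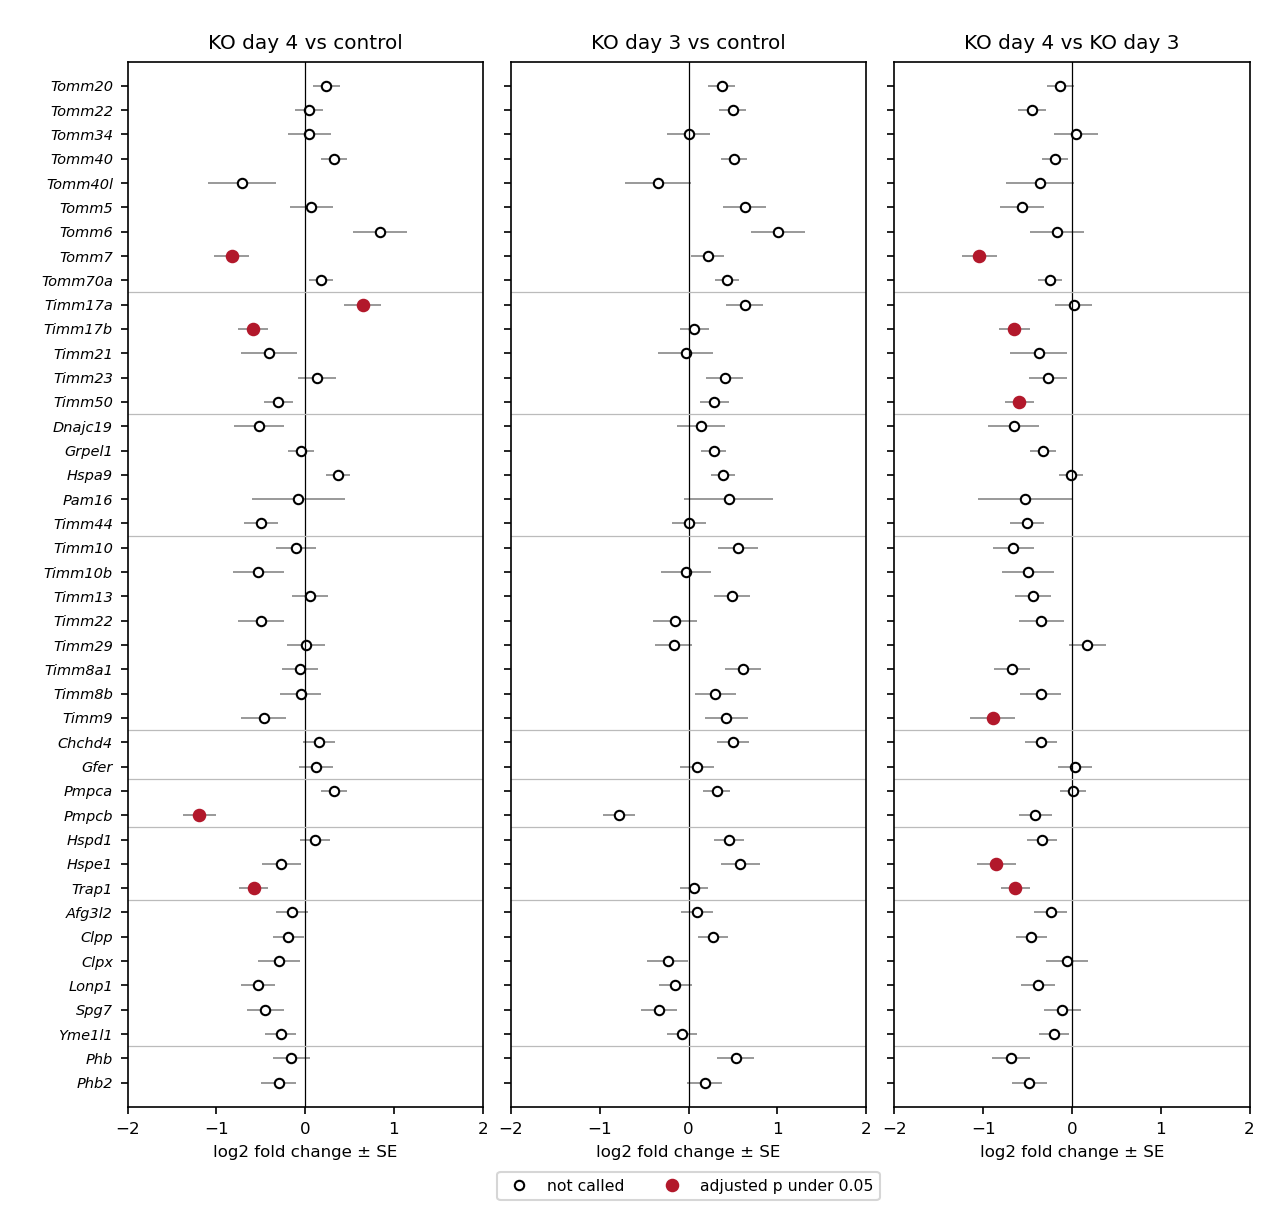
Log2 fold change ± SE of each of the 42 tested members by edgeR (TMM-scaled), for KO day 4 (left) and KO day 3 (middle) set against control, and for KO day 4 against KO day 3 (right); filled points have an adjusted p under 0.05. At KO day 4 against control 5 points are filled, at KO day 3 none, and between the KO groups 6, all left of 0; scaled by total counts alone, all 42 lie left of 0 in the left and right panels.

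Set against KO day 3, KO day 4 had 6 members lower and 0 higher by edgeR (14.3% of the members, against 12.5% of all genes in either direction, 6.52% higher and 6.03% lower). The 6 were Tomm7, Timm17b, Timm50, Timm9, Hspe1 and Trap1, one or more from the gate, the channel, the carrier path and the matrix chaperones. The median log2 fold change was -0.37 over the members and -0.025 over all genes, and 37 of 42 members lay below 0. Every KO day 4 library lay below every KO day 3 library for 16 members (38.1%, against 17% of all genes) and above for none (against 15.8%), which is 38.1% against 32.8% in either direction. This comparison shares its libraries with the comparisons to control. It leans on KO day 3 replicate 1 and KO day 4 replicate 3: without both, 3 members were lower (Tomm7, Dnajc19 and Timm10b), and Tomm7 was the member that passed under all 18 alternatives.

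Of 12 tested regulators of the mitochondrial stress response, 3 rose and 2 fell at KO day 4 (41.7%, against 22.5% of all genes), and none was called at KO day 3 (against 0.44%). Atf4, the transcription factor at the centre of the response, was at 191, 219.6 and 204 CPM at KO day 4, 142, 99.4 and 98.5 at KO day 3 and 91.1, 78.5 and 81.01 in controls. Atf5, another transcription factor of the response, was at 34.9, 21.8 and 43.9 CPM at KO day 4, 16.4, 12.8 and 13.5 at KO day 3 and 10.9, 10.97 and 8.35 in controls. Ddit3 (CHOP) was at 9.85, 19.4 and 21.7 CPM at KO day 4, 1.79, 3.03 and 1.81 at KO day 3 and 3.03, 3.07 and 1.98 in controls. For all 3 the KO day 4 libraries lay above all 6 others, with log2 fold changes against control of 1.29 ± 0.17 SE, adjusted p = 0.00085 by edgeR (Atf4), 1.73 ± 0.27 SE, adjusted p = 0.0017 by edgeR (Atf5) and 2.64 ± 0.39 SE, adjusted p = 0.0014 by edgeR (Ddit3). They also rose against KO day 3, by 0.86, 1.24 and 2.92 on the log2 scale. In the same fit Hspd1, Hspe1, Hspa9, Lonp1, Clpp, Clpx and Yme1l1 had log2 fold changes between -0.53 (Lonp1) and 0.37 (Hspa9). These are chaperone and protease genes that the response is known to raise in mammals, and none passed the test. Hspa9 was called higher under the 6 alternatives named above. Lonp1 was called lower under 5 of 18 alternatives and Clpx under 2 of 18. Scaling by total counts alone, which called all 42 members lower, is among the 5 and the 2. Timm17a was the member that rose.

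In human cells OMA1, DELE1 and the kinase HRI (Eif2ak1) are known as a relay that carries a stress signal out of mitochondria. Oma1, the inner membrane protease that cuts DELE1 under stress, was at 7.74, 3.66 and 2.46 CPM at KO day 4, 9.98, 11.7 and 11.1 at KO day 3 and 12.8, 15.04 and 14.9 in controls. Oma1 fell at KO day 4 (-1.58 ± 0.35 SE, adjusted p = 0.0099 by edgeR). The 2 regulators that fell were Dele1 (-0.62) and Eif2ak1 (-0.82), with edgeR adjusted p of 0.041 and 0.031. Both were named after their values were seen, so nothing is read from the relay as a group. The remaining 7 regulators, which included Hsf1 (-0.26) and Cebpb (0.05), did not pass. The part of Paneth, mast and other cells in these values was not tested.

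**Figure D4:**
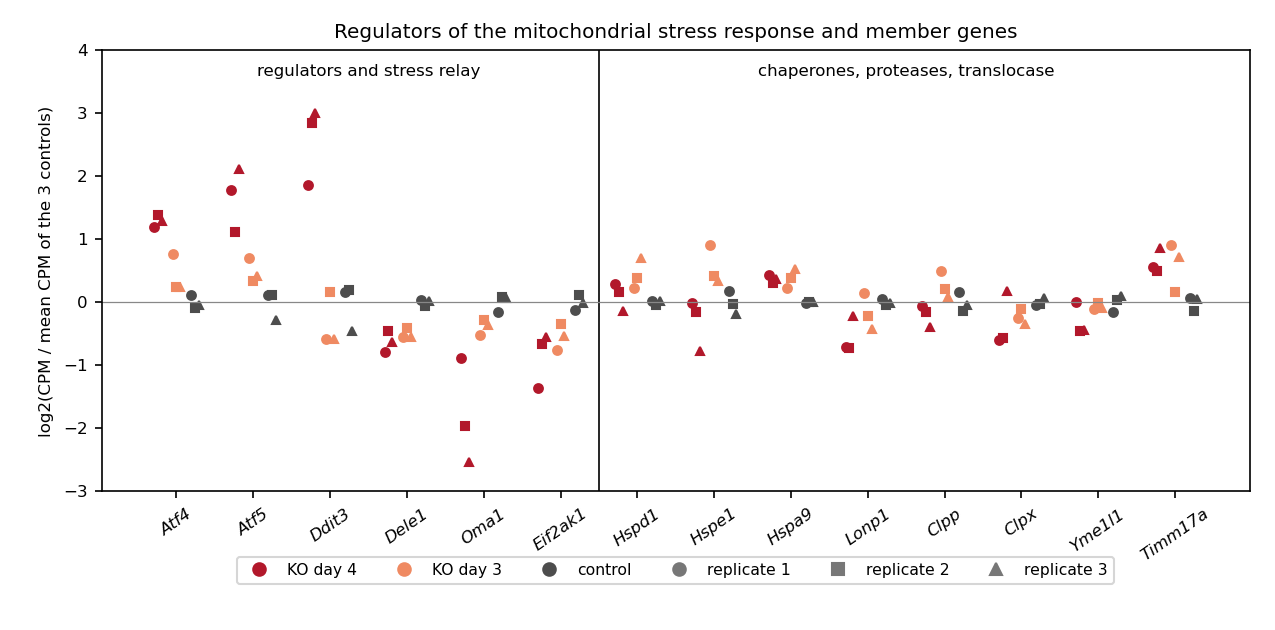
Level in each library as log2 of CPM over the mean CPM of the 3 controls (TMM-scaled), for stress regulators and relay genes (left) and member genes of the chaperones, proteases and the translocase (right), with KO day 4, KO day 3 and control from left to right in each gene and symbols for replicates. Atf4, Atf5 and Ddit3 stand above 1 in every KO day 4 library, while Hspd1, Hspe1, Hspa9, Lonp1, Clpp, Clpx and Yme1l1 stay within 1 of 0 in all 9.

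In 5 further lists of mitochondrial genes, 2 of 38 tested genes rose and 6 fell at KO day 4, 21.1% in all, which is near the 22.5% of all genes. Of 9 outer membrane genes for sorting and insertion, 1 rose and 2 fell at KO day 4: Vdac2, a porin (0.50 ± 0.15 SE, adjusted p = 0.032 by edgeR), Mtx1, of the sorting machinery (-0.82 ± 0.20 SE, adjusted p = 0.015 by edgeR), and Mtch2, an insertase (-0.47 ± 0.15 SE, adjusted p = 0.046 by edgeR). Of 7 tested genes of inner membrane organisation 2 fell, Chchd6 (-1.47 ± 0.29 SE, adjusted p = 0.0055 by edgeR) and Apool (-1.13 ± 0.22 SE, adjusted p = 0.0055 by edgeR), both subunits of the MICOS complex that shapes cristae. Hscb, a J protein that works with Hspa9 in iron-sulfur cluster assembly, fell (-2.02 ± 0.30 SE, adjusted p = 0.0015 by edgeR) and was the only call among 7 import and carrier assembly factors. Xpnpep3, a mitochondrial aminopeptidase, rose (1.63 ± 0.48 SE, adjusted p = 0.032 by edgeR) and was the only call among 6 processing peptidases. The last list held 9 genes of other proteases and proteins that act beside them. Stoml2, Maip1 and Clpb in it are not proteases, and Lonp2, counted among the 38, is the peroxisomal Lon protease. All 9 had values below 0, from -1.58 to -0.28, with Oma1 the 1 called.

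A list drawn up for cytosolic chaperones that keep preproteins unfolded had 3 of 13 tested genes higher and 1 lower at KO day 4. Of all genes 11.1% were higher and 11.5% lower. The lower gene of the list was Fkbp8 (-0.62), known as a protein anchored in the mitochondrial outer membrane. Dnajb6, an HSP40, was at 33.2, 45.6 and 49.5 CPM at KO day 4, 24.1, 30.6 and 31.5 at KO day 3 and 25.6, 23.6 and 20.7 in controls. Its KO day 4 libraries lay above all others (0.87 ± 0.20 SE, adjusted p = 0.012 by edgeR). Hspa1b was at 5.74, 30.2 and 29.1 CPM at KO day 4, 12.4, 4.12 and 6.88 at KO day 3 and 2.99, 1.72 and 5.66 in controls, and Hspa1a at 4.45, 12.9 and 15.9 CPM at KO day 4, 9.21, 0.824 and 1.81 at KO day 3 and 0.971, 0.991 and 1.75 in controls. These stress-inducible HSP70 genes rose at KO day 4 (2.64 ± 0.64 SE, adjusted p = 0.014 by edgeR for Hspa1b, and 3.15 ± 0.82 SE, adjusted p = 0.019 by edgeR for Hspa1a); they are near-identical copies whose reads may have been split, and KO day 4 replicate 1 lay within the range of KO day 3.

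Ratios within a library were taken for 7 pairs of partners or relatives. The design set 6 of these pairs, but for comparisons of protein sequence, and planned no ratios of counts. The pair Hspe1 to Hspd1 was added after values were seen. Counts of Timm17a over Timm17b were 1.92, 1.51 and 2.58 at KO day 4, 1.43, 0.867 and 1.39 at KO day 3, and 0.896, 0.773 and 0.814 in controls. The mean log2 ratio was 0.97 ± 0.39 at KO day 4, 0.26 ± 0.41 at KO day 3 and -0.28 ± 0.11 in controls (SD, n = 3 each). KO day 4 lay above both other groups in every library (2-sided exact permutation p = 0.1 for each, adjusted 0.21), while KO day 3 replicate 2 lay within the range of the controls (exact permutation p = 0.2 for KO day 3 against control). Tomm40l over Tomm40 had mean log2 ratios of -2.97 ± 0.14 at KO day 4, -2.93 ± 0.62 at KO day 3 and -1.99 ± 0.51 in controls, and KO day 4 lay below every control (exact permutation p = 0.1). Hspe1 over Hspd1 had -1.49 ± 0.19 at KO day 4, -0.96 ± 0.53 at KO day 3 and -1.09 ± 0.19 in controls. The pairs Timm8a1 and Timm8b, Phb and Phb2, and Timm10b and Timm10 overlapped between KO day 4 and controls. At KO day 3 the ratio lay above every control for Timm8a1 to Timm8b and for Phb to Phb2, and below every control for Timm10b to Timm10 (exact permutation p = 0.1 each). No pair passed 0.05, which 3 against 3 cannot reach.

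**Figure D5:**
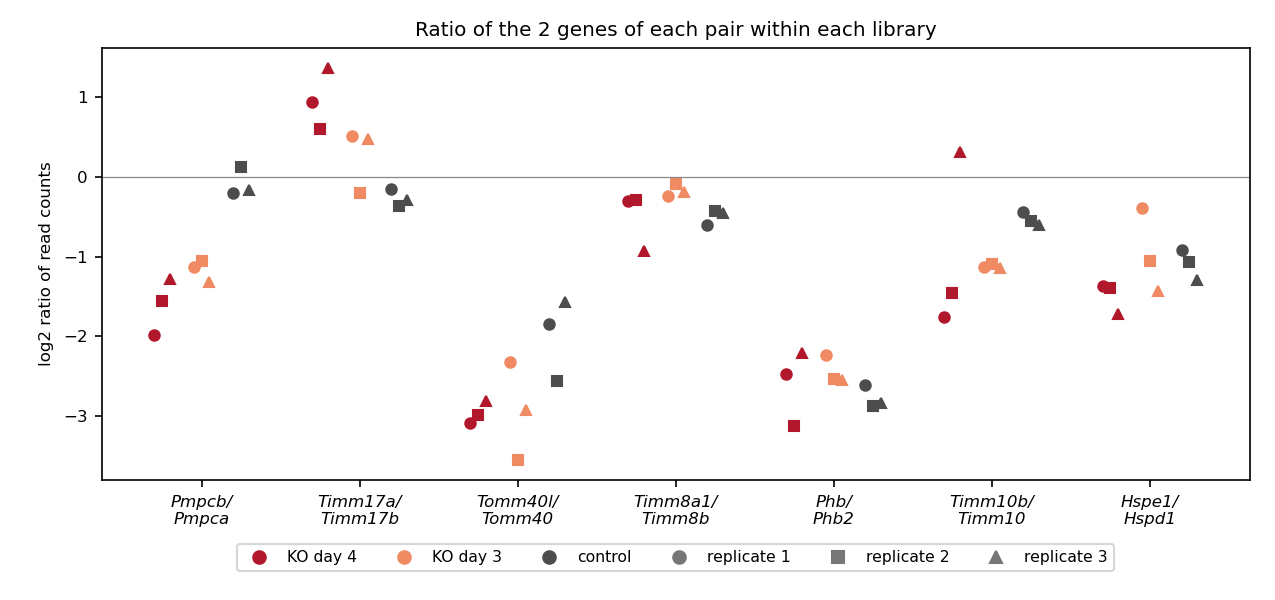
Log2 ratio of read counts of the 2 genes of each pair in each library, with KO day 4, KO day 3 and control from left to right in each pair. Pmpcb over Pmpca is below -1 in all 6 KO libraries and between -0.20 and 0.12 in controls, and Timm17a over Timm17b is above 0 in all KO day 4 libraries and below 0 in all controls.

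The promoters of the members were read for motifs, in RefSeq windows of 300 bases (250 before and 50 after the start site) that were at hand for 39 of the 44 genes in 42 windows (Hspa9, Afg3l2, Tomm40l, Tomm7 and Timm21 were not matched). The ETS motif CCGGAAG stood on either strand in 18 of 42 windows, from 17 genes, against 8.86% of all 32851 windows and 11.6% of 21263 windows of coding genes. Both Pmpcb and Pmpca, and both Hspd1 and Hspe1, are among the 17 genes. The heat shock element stood in 3 windows (Hspd1, Hspe1 and Timm9), against 0.603% of all windows and 0.517% of coding windows. A window of Hspd1 overlaps that of Hspe1, and their heat shock element and ETS matches are the same bases, counted in each. The windows of Tomm34 overlap as well and hold an ETS match in common. Overlaps among all windows were not counted. Of the genes with the heat shock element, Hspe1 and Timm9 fell at KO day 4 against KO day 3. Hspd1 did not pass there (-0.34, adjusted p = 0.21 by edgeR). The calls of Hspe1 and Timm9 were lost without KO day 3 replicate 1 and KO day 4 replicate 3. NRF1, as GCGCA and GCGC around 1 free base, stood in 7 windows (16.7%, against 4.60% of all windows and 6.38% of coding windows). YY1, as AAGATGGC, stood in 1 (Timm50), which is 2.38%, against 2.75% of all windows and 3.05% of coding windows. The C/EBP and ATF response element TGATGNAA stood in 0 of 42 windows, against 3.97% of all windows. The shares among genes active in these cells were not computed. A match describes these letters and is no evidence of binding.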

How the data were processed

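The deposited table holds counts of reads per Ensembl gene as the authors left them, unnormalized, with a column per library (9 in all). HISAT2 2.0.4 and GRCm38 are named by the submitters' processing notes. How reads were counted, with which annotation and strand rule, is not given in the sources used here, so reads of genes that overlap on opposite strands cannot be told apart. Per the labels' protocols, mRNA was isolated from purified total RNA.

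Genes were named through GENCODE M21, which named 51884 of 57180 identifiers. All 9 libraries entered 1 edgeR 4.0.16 quasi-likelihood fit (R 4.3.3) by group alone, after filterByExpr (minimum count 10, minimum total 15) and TMM scaling, with Benjamini-Hochberg adjustment over 13405 genes and a threshold of 0.05; the script was tested on simulated data. Replicates differed by more than sampling noise (chi-square over degrees of freedom, 12.8 to 89.2). TMM factors were 0.40 to 0.50 at KO day 4, 1.22 to 1.40 at KO day 3 and 1.44 to 1.83 in controls. Alternatives were RLE and library-size scaling, other filters, leaving out the mitochondrially encoded genes, DESeq2 1.42.0, a replicate block, fits of the 6 libraries compared, and leaving out libraries. Sequences are RefSeq promoter windows; protein comparisons were not made.

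The members and lists were chosen with earlier results of these data known. Every tested member is named; values in every library are given for a set core of 28 members and for any other with a call, and up to 3 called genes of each further list are named, except 1 that is not reported here.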

Additional observations from a re-analysis of the deposited data

Results flagged for a closer look

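For 6 members the change against control at KO day 4 differed from that at KO day 3 by a test of the difference itself, edgeR's comparison of KO day 4 with KO day 3 with adjustment over all genes. Against KO day 3, the log2 fold change was -1.04 for Tomm7 (lower in 3 of 3 KO day 4 libraries than in any KO day 3 library, as for the other 5), -0.89 for Timm9, -0.85 for Hspe1, -0.65 for Timm17b, -0.64 for Trap1 and -0.59 for Timm50. Adjusted p values by edgeR were 0.0087 (Tomm7), 0.042 (Timm9), 0.031 (Hspe1), 0.033 (Timm17b), 0.027 (Trap1) and 0.037 (Timm50). Tomm7, Trap1 and Timm17b had values near 0 at KO day 3 against control (0.22, 0.06 and 0.07) and fell at KO day 4 (-0.83, -0.58 and -0.58). Hspe1, Timm9 and Timm50 lay on opposite sides of 0 at KO day 4 (-0.27, -0.47 and -0.30) and KO day 3 (0.58, 0.43 and 0.29), with no call against control at either time. KO day 3 replicate 1 was the highest library for 27 of 42 members (16.2% of all genes), and KO day 4 replicate 3 the lowest for 16 of 42 (27.5% of all genes). Without both libraries Tomm7 passed and the other 5 did not, while Dnajc19 and Timm10b did.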

How the results depend on the processing

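No result for a gene called at KO day 4 changed direction except by scaling to total counts alone. That scaling gave 518 genes called at KO day 3, 11057 at KO day 4 and 9508 between the KO groups, members' medians of -1.99 (KO day 4), -0.075 (KO day 3) and -1.92 (KO day 4 against KO day 3), 0 members higher and 42 lower at KO day 4, 1 lower at KO day 3 and 42 lower between the KO groups. It turned 16 members below 0 at KO day 4: Chchd4 -1.74, Gfer -1.77, Hspa9 -1.52, Hspd1 -1.76, Pmpca -1.56, Timm13 -1.85, Timm17a -1.25, Timm23 -1.74, Timm29 -1.89, Tomm20 -1.65, Tomm22 -1.84, Tomm34 -1.83, Tomm40 -1.57, Tomm5 -1.80, Tomm6 -1.04 and Tomm70a -1.71. Between the KO groups it turned Gfer (-1.50), Pmpca (-1.51), Timm17a (-1.53), Timm29 (-1.35) and Tomm34 (-1.46). At KO day 3, genes called numbered 317 with no filter, 818 by DESeq2, 337 in the 6 libraries and 646 without KO day 3 replicate 1 and KO day 4 replicate 3. Members called there were 1 higher with no filter, 5 higher and 1 lower by DESeq2, and 1 lower in each of the last pair of settings. At KO day 4, members called higher were 2 with RLE, 2 with a mean CPM of at least 5, 3 by DESeq2, 3 in the 6 libraries and 2 without the libraries named above, where 10 were lower; with no filter the members' median was -0.22. Between the KO groups DESeq2 called 3030 genes in either direction (1666 higher and 1364 lower) and 10 members, all lower. The fit of the 6 libraries called 806 genes in either direction (526 higher and 280 lower) and 1 member, lower. The set without the libraries named above called 3 members, all lower. Leaving out each library in turn gave 1588 to 3839 genes at KO day 4, 0 to 345 at KO day 3 and 648 to 1802 between the KO groups. Members called higher were 0 to 3 at KO day 4 and 0 in the other comparisons; members called lower were 1 to 6, 0 to 1 and 1 to 6 (KO day 4, KO day 3, KO day 4 against KO day 3), with medians of -0.21 to -0.10, 0.18 to 0.36 and -0.51 to -0.29. The cause of these shifts was not tested.

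Deviations of same-numbered replicates from their group means had correlations of -0.06 to 0.11. Libraries of different numbers were not compared in this way, so whether the numbers pair the libraries cannot be told. With a replicate block 9 genes were called at KO day 3 and members' calls changed by 1 lost (Timm9) and 2 gained (Phb and Timm8a1) of 126, all between the KO groups. KO day 4 had the fewest nuclear counts, which limits the precision of low members such as Pam16, with 6 counts in its lowest library.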
